A study of Homo sapiens with 12 samples.

Results

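The genes described here were 40 genes of cell division: mitotic and checkpoint kinases, mitotic cyclins with CDK1 and the CDC25 phosphatases, checkpoint adaptors, kinetochore and passenger complex genes, kinesins, spindle and cytokinesis factors, and the transcription factors FOXM1 and MYBL2. They were chosen by name, as the rows that carry exactly these symbols in both expression tables, by a rule that uses no measured value, although the list was drawn up with earlier results of these data known. All 40 were found among 23621 gene rows. Every one of the 40 passed the limit on low values, an FPKM above 1 in at least 1 library, as did 14251 genes in all, which were the genes tested. FPKM counts sequenced fragments per transcript length and sequencing depth, and the authors scaled it here to spike-in RNAs, added in proportion to cell number.

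RNA-seq was carried out on polyA RNA of 2 human ovarian cancer lines, KURAMOCHI (Ku, grown in RPMI) and COV362 (Cov, grown in DMEM), both labelled as untransduced controls. Cells of each line received DMSO, 50 nM THZ1 or 250 nM THZ1 for 6 hr, with 2 replicates per group and 12 libraries in all. THZ1 is a covalent inhibitor of CDK7 that also inhibits CDK12 and CDK13, kinases that phosphorylate RNA polymerase II. Each line is a single established culture, so that the comparisons describe these 2 lines at 1 time point.

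Cells build up the machinery of mitosis in a wave that begins in S phase and peaks as they enter division. CDK1 bound to cyclin A or cyclin B starts mitosis once CDC25 phosphatases have removed its inhibitory phosphates. Aurora and Polo-like kinases then shape the spindle, the kinetochore ties chromosomes to microtubules, and the spindle checkpoint holds back the anaphase-promoting complex until all chromosomes are attached. Much of this wave is written by the MuvB complex, which binds the cell cycle homology region (CHR) of promoters together with B-MYB, the product of MYBL2, and with FOXM1, while NF-Y binds neighboring CCAAT boxes. In bulk libraries such as these, fewer cells in G2 phase or mitosis and less RNA per cell cannot be told apart.

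The label of the cells was compared with markers of serous ovarian carcinoma and epithelium. In DMSO libraries the 8 markers PAX8, WT1, MUC16, EPCAM, KRT7, KRT8, KRT18 and KRT19 summed to between 4693 and 4939 FPKM in Ku and between 3585 and 4001 FPKM in Cov, with PAX8 between 120.3 and 140.0 FPKM in all 4. KRT8 and KRT18 made up most of the Ku sum, while EPCAM stood at 4.01 and 4.24 FPKM in Ku against 149.9 and 174.1 FPKM in Cov, and KRT7 at 4.68 and 4.54 FPKM in Ku against 1287 and 1423 FPKM in Cov. WT1 stood at 53.4 and 60.1 FPKM in Ku but at 0.565 and 0.741 FPKM in Cov, and MUC16 stood at 0.159 and 0.172 FPKM in Ku. The 8 markers of leukocytes, endothelium and fibroblasts (PTPRC, CD3E, CD14, PECAM1, VWF, COL1A1, COL3A1, DCN) summed to 16.9 and 14.6 FPKM in the Ku DMSO libraries and 9.51 and 9.63 FPKM at 250 nM, and in Cov to 5.78 and 5.68 and then 2.44 and 2.80 FPKM. Of them CD3E, which marks T cells, lay at the most frequent value of its library in all 12 libraries. The part of these markers in the results was not tested. Spike-in RNAs, 53 of them used in Ku and 48 in Cov, had a median log2 deviation of at most 0.0451 in any library. The values had already been scaled to the spike-in RNAs, so a small median does not test that scaling. The standard deviation across these RNAs reached 0.304 in Ku, in 250 nM replicate 1, and 0.239 in Cov, in 50 nM replicate 2. The 2 tables were normalized separately, so no test was made between lines.

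With spike-in scaling, mitotic transcripts were lower with THZ1 in both lines, whereas 20 of the 40 genes in Ku and 22 in Cov came out above 0 at 250 nM when libraries were scaled to an equal median instead. At 250 nM all 40 genes were called lower in Ku and all 40 in Cov, with the largest log2 fold change in both for AURKA, the spindle pole kinase Aurora A, whose mean FPKM was 26.1-fold lower in Ku and 22.5-fold lower in Cov. By the fold of mean FPKM CDC25A was ahead of it in Cov, at 23.7-fold lower. Calls required an adjusted p below 0.001 (limma on log2(FPKM + 1), Benjamini-Hochberg over the 14251 genes) together with a log2 fold change beyond 0.5. THZ1 at 250 nM lowered most genes of these cells: 68.6% of all genes tested were called lower in Ku and 84% in Cov, so the count of 40 of 40 stands beside a high background. The median log2 fold change of the 40 genes was -1.88 in Ku against -1.11 over all genes tested, and -1.997 in Cov against -1.31. In Ku 35 of the 40 genes fell more than the median gene, and in Cov 36 did. All 40 had DMSO means of at least 11.1 FPKM, while many genes tested were low. Among genes above 10 FPKM in at least 1 library, 82.5% were called lower in Ku and 94% in Cov, their medians were -1.29 and -1.50, and 29 and 32 of the 40 genes fell more. With 0.1 in place of 1 added before the log, 28 and 32 did. None of the 40 was called higher by limma in any comparison, all 40 log2 fold changes lying below 0 in each, where the background was 0.0491% of all genes in Ku and 0.105% in Cov at 250 nM.

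At 50 nM, with spike-in scaling, more of the genes were called in Cov than in Ku. In Cov 39 of 40 genes were called lower, against 70.5% of all genes tested, and the exception was NUF2, a subunit of the microtubule-binding NDC80 complex, with a log2 fold change of -0.74 ± 0.133 (SE) and an adjusted p of 0.00130. In Ku 9 of 40 were called lower, against 11.3% of all genes: the kinases PLK1, AURKA and AURKB, the cyclins CCNA2 and CCNB1, the phosphatase CDC25B, the checkpoint genes MAD2L1 and CDC20, and HMMR, a spindle-associated microtubule binder. The median log2 fold change of the 40 genes at 50 nM was -0.64 in Ku, where that of all genes was -0.40, and -1.19 in Cov, where that of all genes was -0.85. With spike-in scaling no member rose, against 0.0842% of all genes called higher in Ku and 0.0772% in Cov. Scaled to an equal median, none of the 40 was called lower in either line (0.589% of all genes in Ku and 0.154% in Cov). The median of the 40 genes then lay above 0, at 0.053 in Ku and 0.015 in Cov. With median-of-ratios scaling 2 were called lower in Ku and 0 in Cov, against 2.72% and 0.772% of all genes. The Ku calls at 50 nM rested on every library of that line: leaving out any 1 of its 6 libraries left between 0 and 1 of the 9 calls, the 1 being CDC20 when DMSO replicate 2 was left out, and between 0.0421% and 0.919% of all genes were then called.

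From 50 nM to 250 nM, all 40 log2 fold changes were below 0 in both lines, and 28 of the 40 genes were called lower in Ku, against 36% of all genes, and 21 in Cov, against 24.4%. The share of genes called higher over this step was 0.0421% in Ku and 0.0842% in Cov, with none of the 40 among them. Scaled to an equal median, 5 were called lower in Ku and 6 in Cov (6.59% and 5.05% of all genes), and 3 and 1 higher (6.62% and 3.22%). With median-of-ratios scaling 12 and 9 were called lower (11.1% and 7.92%), and 1 and 0 higher (1.39% and 0.498%). With the replicate number as a block in the fit, 33 and 9 were called lower (34.7% and 7.93%). These step counts too depended on single libraries. Leaving out 1 library gave between 9 and 27 calls in Ku, with the lowest count without 250 nM replicate 1, when 5.55% of all genes were called. In Cov it gave between 10 and 22, with the lowest count without 250 nM replicate 2, when 10.7% of all genes were called. The comparisons within a line share their libraries and are not independent of each other. Between the replicates of 1 group the 40 genes differed by a median of 0.0767 to 0.192 on the log2 scale, with the largest difference, 0.682, for CENPA in Ku at 50 nM.

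Read library by library, the order of doses was the same for nearly all of these genes. In Cov all 40 had both DMSO libraries above both 50 nM libraries, and those above both 250 nM libraries, an order that 73.8% of all genes tested also held. In Ku 37 of 40 held it, against 66.7% of all genes, and the 3 that did not were NEK2, CCNB2 and HMMR. The summed FPKM of the 40 genes took 0.258% and 0.235% of all FPKM in the 2 Ku DMSO libraries, 0.190% and 0.181% at 50 nM, and 0.135% and 0.141% at 250 nM. In Cov the share went from 0.337% and 0.324% to 0.217% and 0.212%, and then to 0.187% and 0.178%. In both lines the 3 dose groups did not overlap. Such shares, and ratios of genes within a library, are free of the scaling only where 1 factor was applied to the whole library. Whether the spike-in normalization did so was not tested. Between replicate 1 of DMSO and of 250 nM in Cov, the most frequent value moved from 0.102 to 0.0943 FPKM. The median FPKM of the genes tested moved from 13.4 to 3.32, so the 2 moved unequally.

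**Figure D1:**
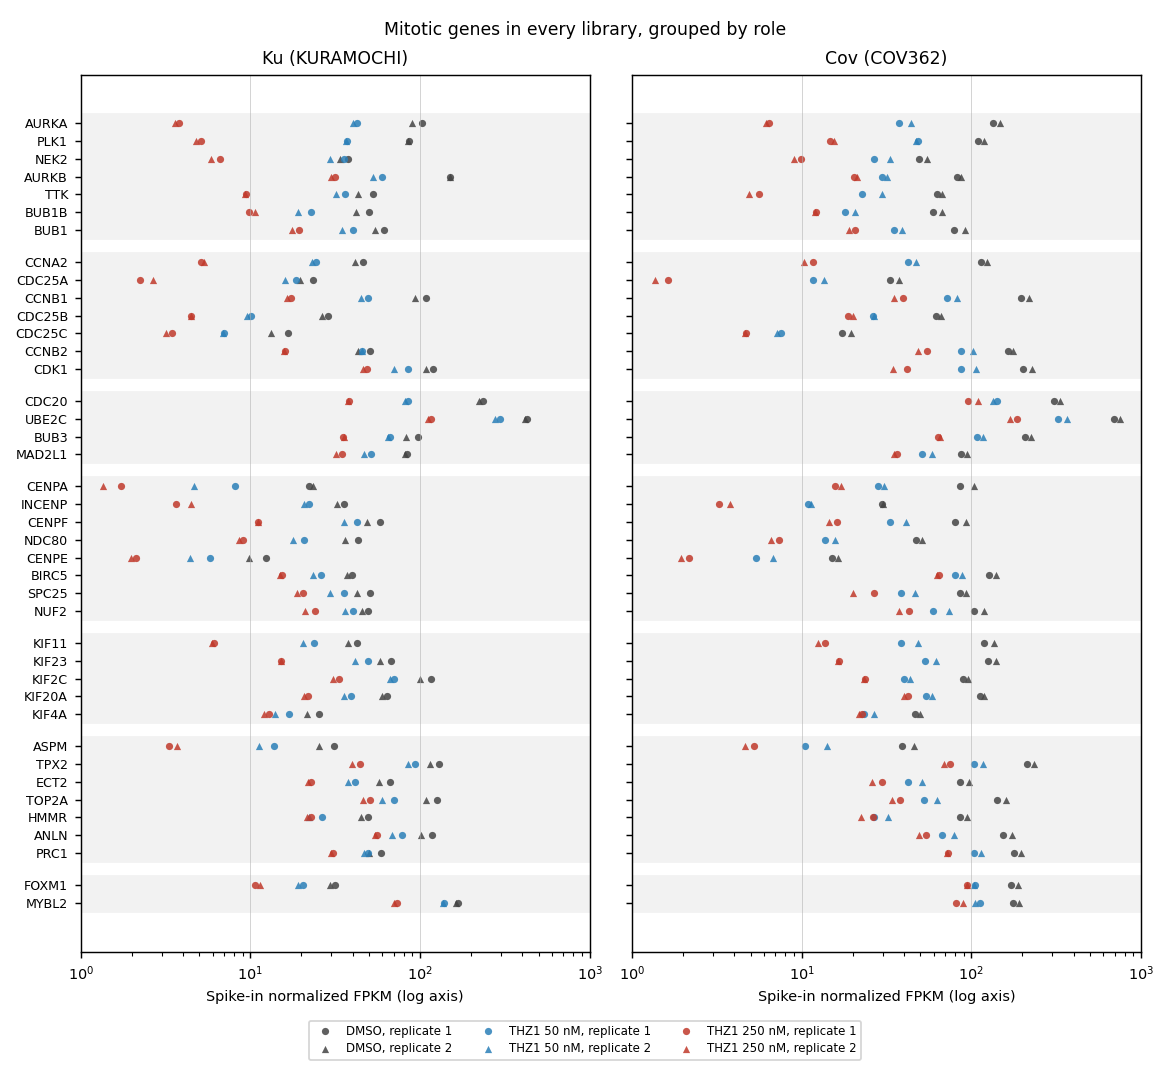
Spike-in normalized FPKM (log axis) of the 40 mitotic genes, in rows grouped by role, in the 6 Ku libraries (left) and the 6 Cov libraries (right), with circles for replicate 1, triangles for replicate 2 and colors for the dose. The 250 nM points lie to the left of the DMSO points in every row, and the gap is widest for AURKA in Ku and for CDC25A and AURKA in Cov.

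The direction of these changes depended on the scaling for many of the genes. When each library was instead scaled to the same median FPKM, the median of all genes moved to 0.30 in Ku and 0.33 in Cov at 250 nM, the median of the 40 genes to 0.013 and 0.050, and 7 genes in Ku and 11 in Cov were still called lower while 6 and 7 were called higher. Of all genes tested, 11.7% were then called lower and 27% higher in Ku, and 11.3% and 26.6% in Cov. With median-of-ratios scaling the median of all genes was -0.00088 in Ku and 0.011 in Cov, that of the 40 genes was -0.50 and -0.40, and 18 and 17 genes were called lower and 1 and 2 higher. The shares of all genes were then 19% lower and 11.1% higher in Ku, and 18.9% and 8.57% in Cov. A set of 7 genes was called lower at 250 nM in both lines under all 3 scalings: AURKA, PLK1, CCNA2, CDC25A, INCENP, KIF11 and ASPM. Another 6, PRC1, KIF4A, MYBL2, NUF2, MAD2L1 and BIRC5, lay above 0 in both lines under both other scalings, so that their direction turned. Both sets were read off after the values were seen, and the shares of all genes that met these 2 rules were not counted.

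The genes share more than their function. Promoter sequence from 250 bases before to 50 bases after the annotated start (RefSeq, GRCh38.p14) could be matched by symbol for 33 of the 40 genes, some of them with several starts. The CHR was searched as TTTGAA or TTTAAA and the CCAAT box as CCAAT, each on both strands. A CHR match stood in the window of 27 of the 33 genes (81.8%), against 21.6% of 10050 tested genes with a promoter and 27.9% of 27305 genes in the promoter table. For the CCAAT box it was 26 of 33 (78.8%), against 43.1% and 39.7%, and for both together 20 of 33 (60.6%), against 9.02% and 11.2%. An E2F site searched as TTTGGCGC or TTTCCCGC was found in 2 of 33 (6.06%), near the 4.56% of tested genes and 2.75% of genes in the table. A match to so short a motif is a description of the letters and does not show that a factor binds there.

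The sequences show how such matches are placed. The 150 bases before the start are printed for 8 genes, on the strand of the gene, with CHR and CCAAT matches of either strand in capitals. PLK1 and CCNA2 are among the genes that fell most, and PRC1 and KIF4A among those that fell least. At 50 nM in Ku, CCNB1 and CDC20 were called lower while CCNB2 and NEK2 were not.
PLK1, chr16:23678739-23678888, plus strand: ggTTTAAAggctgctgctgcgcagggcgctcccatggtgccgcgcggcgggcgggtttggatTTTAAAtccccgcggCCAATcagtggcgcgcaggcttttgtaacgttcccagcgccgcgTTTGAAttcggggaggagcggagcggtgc
CCNA2, chr4:121823884-121824033, minus strand: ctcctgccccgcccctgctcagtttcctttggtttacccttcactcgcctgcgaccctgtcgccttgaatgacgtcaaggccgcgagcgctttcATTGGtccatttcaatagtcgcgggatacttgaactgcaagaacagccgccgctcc
CCNB1, chr5:69167000-69167149, plus strand: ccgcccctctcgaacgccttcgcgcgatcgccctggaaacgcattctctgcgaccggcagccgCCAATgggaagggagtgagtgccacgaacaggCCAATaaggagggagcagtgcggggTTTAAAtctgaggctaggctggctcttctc
CCNB2, chr15:59104996-59105145, plus strand: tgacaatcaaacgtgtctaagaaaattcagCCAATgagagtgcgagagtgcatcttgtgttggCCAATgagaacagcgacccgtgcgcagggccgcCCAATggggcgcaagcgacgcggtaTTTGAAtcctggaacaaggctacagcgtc
CDC20, chr1:43358831-43358980, plus strand: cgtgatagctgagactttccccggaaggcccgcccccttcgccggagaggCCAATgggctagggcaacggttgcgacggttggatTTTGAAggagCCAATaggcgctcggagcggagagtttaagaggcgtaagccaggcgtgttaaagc
NEK2, chr1:211675622-211675771, minus strand: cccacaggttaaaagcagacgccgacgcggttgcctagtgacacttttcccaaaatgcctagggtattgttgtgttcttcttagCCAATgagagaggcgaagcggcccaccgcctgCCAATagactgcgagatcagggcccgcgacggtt
PRC1, chr15:90994536-90994685, minus strand: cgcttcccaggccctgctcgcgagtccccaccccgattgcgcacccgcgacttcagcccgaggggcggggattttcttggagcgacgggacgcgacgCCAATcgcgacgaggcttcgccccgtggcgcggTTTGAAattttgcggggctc
KIF4A, chrX:70289954-70290103, plus strand: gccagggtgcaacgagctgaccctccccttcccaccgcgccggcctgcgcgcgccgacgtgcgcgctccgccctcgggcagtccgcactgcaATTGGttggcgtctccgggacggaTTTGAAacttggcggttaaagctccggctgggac

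In PLK1, CCNB1, CCNB2, CDC20, PRC1 and KIF4A a CCAAT match was followed by a CHR match closer to the start. Their log2 fold changes at 250 nM in Ku ran from -3.87 for PLK1 to -0.82 for PRC1. In CCNA2 and NEK2 the letters searched for the CHR were not in this stretch. Among the 33 genes the median log2 fold change at 250 nM in Ku was -1.88 for the 27 with a CHR match and -2.30 for the 6 without, and in Cov -1.94 and -2.20. For the CCAAT box it was -2.07 for the 26 with a match and -1.71 for the 7 without in Ku, and -2.05 and -1.94 in Cov. Over all tested genes with a promoter the medians with and without a CHR match were -1.18 and -1.15 in Ku, and -1.41 and -1.35 in Cov. Within the 33 genes the median fall at 250 nM was thus smaller with a CHR match and larger with a CCAAT match. At 50 nM the CHR medians with and without a match went the other way in Ku, -0.74 and -0.45, but not in Cov, -1.21 and -1.29. The groups without a match held 6 and 7 genes, and these differences were not tested.

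**Figure D2:**
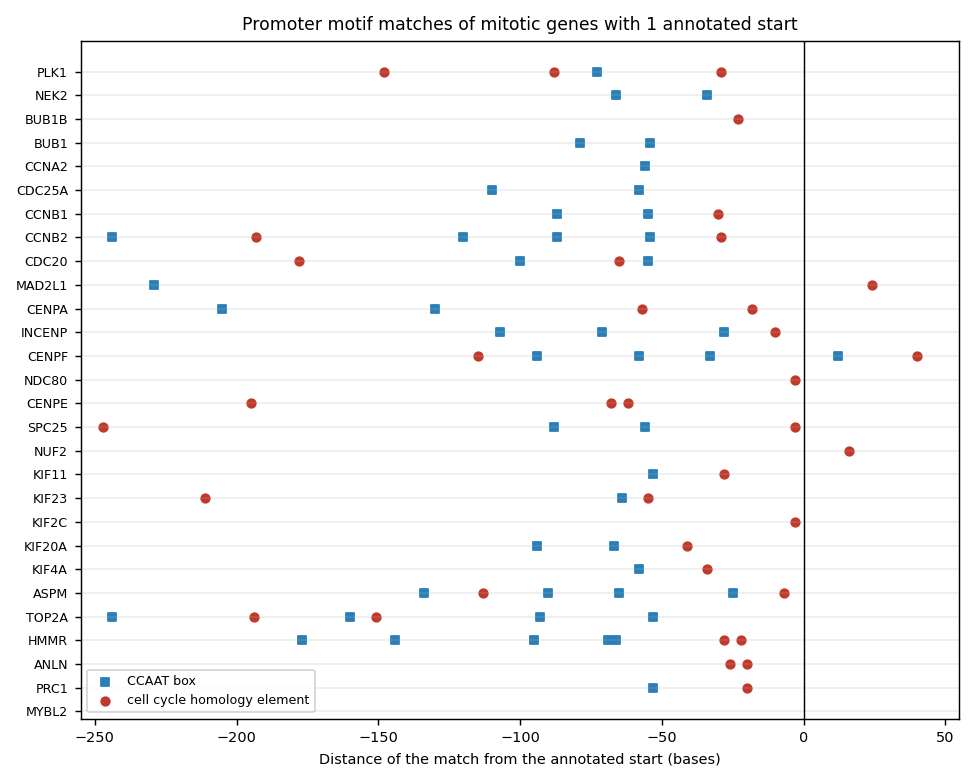
Distance in bases of each CCAAT match (blue squares) and CHR match (red circles) from the annotated start for the 28 mitotic genes with 1 annotated start in the promoter table, 1 row per gene in the role order of the plot of values by library. Of 47 CCAAT matches 34 lie within the 100 bases before the start in 19 genes, and of 37 CHR matches 24 do, also in 19 genes.

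Among the 7 mitotic and checkpoint kinases, all were called lower at 250 nM in both lines (68.6% of all genes in Ku and 84% in Cov), and the fall spread from -1.59 (BUB1) to -4.37 (AURKA) in Ku. AURKA, Aurora A, which matures centrosomes and builds the spindle, read 102.8 and 89.3 FPKM in the Ku DMSO libraries, 42.4 and 39.999 FPKM at 50 nM and 3.80 and 3.58 FPKM at 250 nM. In Cov it read 133.9 and 148.0, then 37.4 and 43.8, then 6.38 and 6.16 FPKM. The gene lies on chromosome 20 at 54944445 to 54967393, minus strand (GRCh37). Its 3 groups did not overlap in either line, and at 250 nM AURKA retained 3.84% of its DMSO level in Ku and 4.45% in Cov. Its log2 fold changes were -4.37 ± 0.0934 (SE, n = 2 per group, adjusted p by limma 5.08e-06) and -4.29 ± 0.104 (adjusted p by limma 8.16e-07). Among the 14251 genes ranked from the largest fall, AURKA took place 60 in Ku and place 40 in Cov.

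PLK1, Polo-like kinase 1, which drives mitotic entry and centrosome maturation and whose promoter holds 3 CHR matches, read 86.1 and 84.7 FPKM in Ku with DMSO, 37.3 and 36.6 at 50 nM and 5.09 and 4.75 at 250 nM. The corresponding Cov values were 110.1 and 118.0, 48.2 and 47.2, and 14.6 and 15.5 FPKM. PLK1 stood at 43.2% of DMSO in Ku and 41.9% in Cov at 50 nM, while at 250 nM it stood at 5.76% in Ku and at 13.2% in Cov. The log2 fold change at 250 nM was -3.87 ± 0.0709 (SE) in Ku and -2.84 ± 0.0812 (SE) in Cov, called in both lines. The gene lies on chromosome 16 at 23688977 to 23701688, plus strand (GRCh37), over ERN2 on the other strand, and whether counting used strand is not given in the sources used here.

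TTK, the kinase that starts spindle checkpoint signaling, read 53.1 and 43.0 FPKM in Ku with DMSO, 36.1 and 32.1 at 50 nM, and 9.41 and 9.24 at 250 nM. In Cov the values were 62.6 and 67.3, 22.5 and 29.7, and 5.63 and 4.88 FPKM. The fall in Cov, -3.40 ± 0.140 (SE), was the third largest of the 40 genes there, and in Ku TTK fell by 2.24 ± 0.120 (SE) on the log2 scale. Both were called.

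At 250 nM the log2 fold changes of the remaining kinases were smaller in both lines than those of AURKA and PLK1. AURKB, the kinase of the chromosomal passenger complex, was called at 50 nM in both lines, to 37.3% of DMSO in Ku and 36.4% in Cov, and retained 20.5% and 24.6% at 250 nM. The ratio of AURKA to AURKB within a library, as deposited, was 0.683 and 0.598 in Ku with DMSO, 0.712 and 0.762 at 50 nM, and 0.121 and 0.119 at 250 nM. In Cov the ratio was 1.63 and 1.69, 1.25 and 1.38, and 0.313 and 0.290. Between 50 nM and 250 nM AURKA thus fell further than AURKB in both lines.

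BUB1 and BUB1B, checkpoint kinase and pseudokinase, had log2 fold changes at 250 nM of -1.59 and -2.07 in Ku, and of -2.05 and -2.30 in Cov. NEK2, which splits centrosomes apart before mitosis, stood out at 50 nM in Ku: its DMSO libraries read 37.6 and 33.7 FPKM and its 50 nM libraries 35.4 and 29.3 FPKM, so the groups overlapped and the log2 fold change of -0.14 ± 0.124 (SE) was not called (adjusted p by limma 0.365). At 250 nM it read 6.62 and 5.84 FPKM in Ku, 17.5% of DMSO, and the retained share in Cov was 18.1%.

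All 7 genes of the cyclin, CDK1 and CDC25 group were likewise called lower at 250 nM in both lines, against the same 68.6% and 84% of all genes. CCNA2, cyclin A2, read 46.0 and 41.6 FPKM with DMSO in Ku, 24.3 and 23.1 at 50 nM, and 5.08 and 5.31 at 250 nM. In Cov it read 113.7 and 123.8, 42.4 and 46.9, and 11.6 and 10.3 FPKM. Its doses were clear of each other in both lines, with log2 fold changes at 250 nM of -2.85 ± 0.0888 (SE) in Ku and -3.32 ± 0.0989 (SE) in Cov.

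CDC25A, the phosphatase that also acts at the start of S phase, read 23.4 and 19.5 FPKM in Ku with DMSO, 18.7 and 15.996 at 50 nM, and 2.22 and 2.65 at 250 nM. Cov values were 33.1 and 37.5, 11.6 and 13.6, and 1.62 and 1.36 FPKM. At 50 nM CDC25A thus kept 80.7% of its DMSO level in Ku and 35.7% in Cov, and at 250 nM 11.3% and 4.22%, the lowest share of any of the 40 genes in Cov. The log2 fold change at 250 nM was -2.71 ± 0.143 (SE) in Ku and -3.87 ± 0.121 (SE) in Cov, and these understate the fall since the low 250 nM values lie close to the added 1 FPKM.

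The B cyclins, the partners of CDK1 at mitotic entry, parted at 50 nM in Ku. CCNB1 was called there with a log2 fold change of -1.08 ± 0.0925 (SE), and CCNB2, whose DMSO libraries read 50.9 and 43.4 FPKM and whose 50 nM libraries read 45.7 and 45.6 FPKM, was not, at -0.04 ± 0.0906 (SE) and an adjusted p by limma of 0.716. Within libraries the CCNB1 to CCNB2 ratio was 2.11 and 2.16 in Ku with DMSO, 1.07 and 0.984 at 50 nM, and 1.08 and 1.03 at 250 nM. In Cov it was 1.19 and 1.24, 0.821 and 0.809, and 0.730 and 0.719. The ratio had therefore dropped at the lower dose in both lines, and in Ku the 250 nM libraries lay beside the 50 nM libraries.

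CDK1 itself was one of the lesser falls of the group in Ku, -1.25 ± 0.105 (SE) at 250 nM or 41.4% of DMSO, while in Cov it fell by 2.47 ± 0.134 (SE) on the log2 scale, to 17.7%. CDC25B and CDC25C, phosphatases of the G2 to mitosis step, were called at 250 nM in both lines with log2 fold changes of -2.38 and -1.88 in Ku and -1.68 and -1.78 in Cov. The ratio of CDC25A to CDC25C within a library was 1.41 and 1.47 with DMSO in Ku, 2.67 and 2.31 at 50 nM, and 0.641 and 0.837 at 250 nM. In Cov the CDC25A to CDC25C ratio was 1.91 and 1.91, 1.54 and 1.91, and 0.346 and 0.291, so the ratio was lowest at 250 nM in both lines.

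The 4 checkpoint adaptors and factors of the anaphase-promoting complex (APC/C) were called at 250 nM in both lines, where 68.6% and 84% of all genes were, with log2 fold changes from -1.29 to -2.56 in Ku and from -1.32 to -2.02 in Cov. CDC20, which activates the APC/C at anaphase, fell most of the 4 in Ku, -2.56 ± 0.0602 (SE), and UBE2C, the E2 enzyme of the APC/C and the most abundant of the 40 genes with a DMSO mean of 420.6 FPKM in Ku and 722.2 FPKM in Cov, fell most in Cov, -2.02 ± 0.102 (SE). MAD2L1, the MAD2 protein that inhibits CDC20, read 84.2 and 81.6 FPKM with DMSO in Ku, 51.7 and 46.9 at 50 nM, and 34.6 and 32.1 at 250 nM. In Cov it read 87.1 and 94.3, 51.4 and 58.6, and 36.6 and 35.1 FPKM. It retained 40.3% in Ku and 39.5% in Cov at 250 nM, close shares in both lines, while CDC20 retained 16.6% in Ku and 32.1% in Cov. BUB3, which carries BUB1 and BUB1B to kinetochores, retained 39.4% and 30.0%.

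Of the 8 genes of centromere, kinetochore and passenger complex, none was called at 50 nM in Ku, 7 were called in Cov, and all 8 were called at 250 nM in both lines. The shares of all genes were 11.3% and 70.5% at 50 nM, and 68.6% and 84% at 250 nM. CENPA, the histone H3 variant of centromeres, had 22.2 and 23.5 FPKM in the Ku DMSO libraries, 8.07 and 4.65 at 50 nM, and 1.73 and 1.35 at 250 nM. Its Cov values were 85.8 and 104.0, 28.03 and 30.4, and 15.7 and 17.1 FPKM. The mean at 50 nM in Ku, 27.8% of DMSO, was the lowest of the 40 genes, but with 50 nM replicates this far apart the log2 fold change of -1.74 ± 0.236 (SE) missed the threshold (adjusted p by limma 0.00196). At 250 nM the log2 fold change was -3.24 ± 0.236 (SE) in Ku and -2.46 ± 0.114 (SE) in Cov.

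INCENP, the scaffold of the passenger complex, read 35.4 and 32.5 FPKM with DMSO in Ku, 22.2 and 20.8 at 50 nM, and 3.65 and 4.47 at 250 nM. Cov libraries read 29.6 and 30.2, 10.9 and 11.4, and 3.25 and 3.77 FPKM. It fell nearly alike in the lines at 250 nM, by 2.79 ± 0.114 (SE) and 2.78 ± 0.0977 (SE) on the log2 scale. BIRC5, survivin, the partner of INCENP in the same complex, moved less: 39.8 and 37.0, 26.0 and 23.3, and 15.5 and 15.0 FPKM in Ku.

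In Cov BIRC5 read 126.9 and 138.7 FPKM with DMSO, 80.5 and 87.9 at 50 nM, and 64.0 and 62.7 at 250 nM. The groups did not overlap, yet 47.7% of the DMSO level was left in Cov at 250 nM, and its log2 fold change of -1.05 ± 0.0868 (SE) was the second smallest there. The INCENP to BIRC5 ratio was 0.890 and 0.878 in Ku with DMSO, 0.855 and 0.890 at 50 nM, and 0.236 and 0.299 at 250 nM. In Cov it was 0.234 and 0.218, 0.135 and 0.130, and 0.0508 and 0.0602. These 2 members of 1 complex thus changed unequally in Ku at 250 nM and in Cov at both doses.

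The NDC80 complex, which grips microtubule ends, also had members that changed unequally. NUF2 read 49.3 and 45.2 FPKM with DMSO in Ku, 40.5 and 36.1 at 50 nM, and 24.1 and 20.8 at 250 nM. In Cov it read 104.0 and 117.9, 59.1 and 73.7, and 43.0 and 37.3 FPKM. Its falls at 250 nM, -1.04 ± 0.103 (SE) in Ku and -1.45 ± 0.133 (SE) in Cov, were close to the all-gene medians. NDC80 itself fell by 2.05 ± 0.119 (SE) in Ku and 2.65 ± 0.104 (SE) in Cov, and SPC25 by 1.21 ± 0.131 (SE) and 1.91 ± 0.149 (SE).

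The NDC80 to NUF2 ratio was 0.872 and 0.801 in Ku with DMSO, 0.514 and 0.496 at 50 nM, and 0.375 and 0.408 at 250 nM. In Cov it went from 0.453 and 0.435 to 0.234 and 0.212 and to 0.171 and 0.177, so that the dose groups did not overlap in either line. CENPE, the kinetochore kinesin and the scarcest of the 40 genes with DMSO means of 11.1 FPKM in Ku and 15.7 FPKM in Cov, and CENPF, a large kinetochore protein, had log2 fold changes at 250 nM of -1.99 and -2.16 in Ku, and of -2.45 and -2.41 in Cov.

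**Figure D3:**
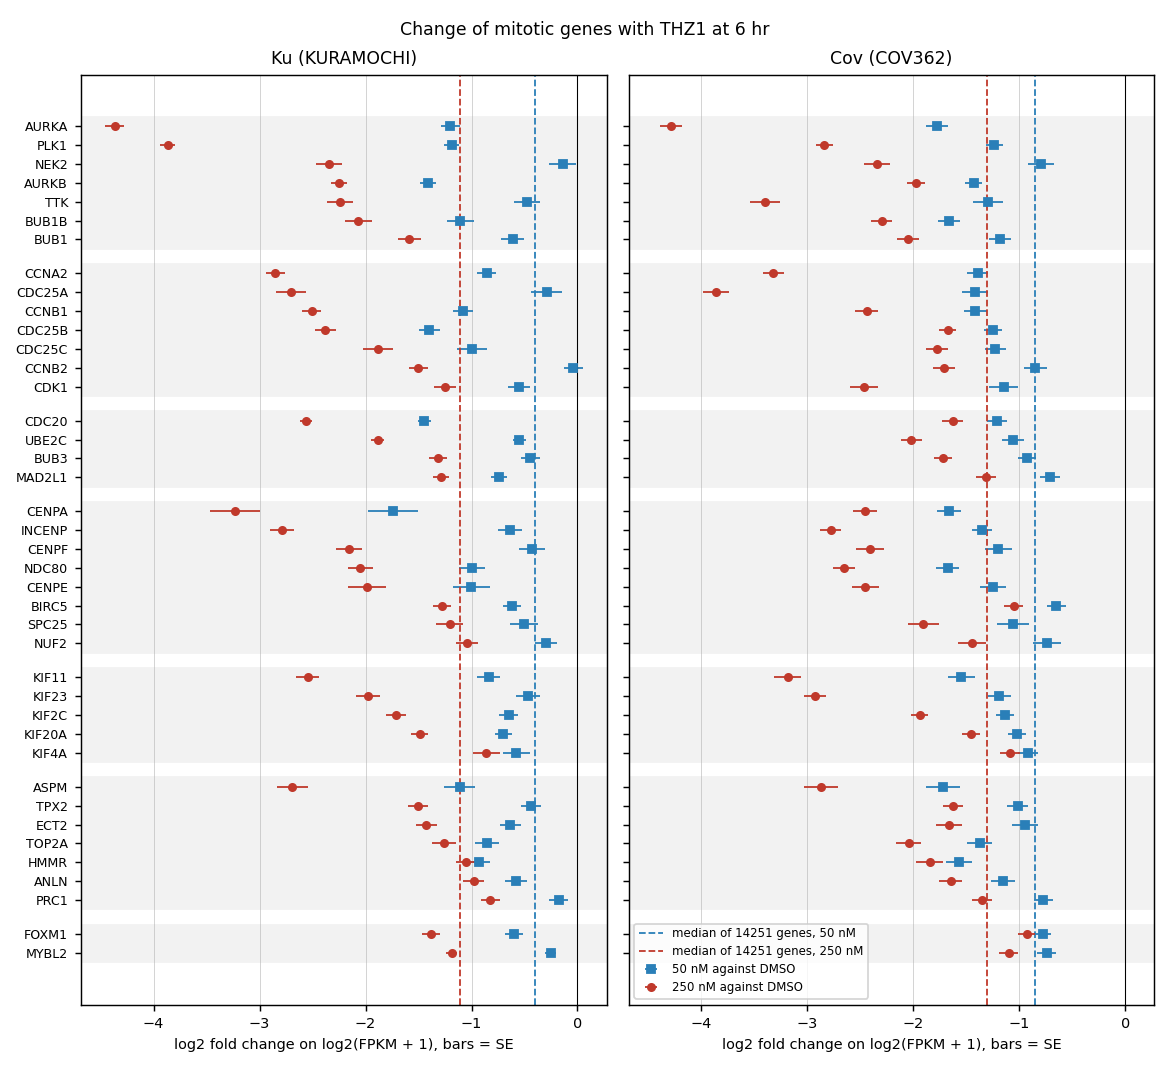
Log2 fold change of each of the 40 mitotic genes against DMSO (x axis, on log2(FPKM + 1), bars are the SE from limma, 2 libraries per group) at 50 nM (blue squares) and 250 nM (red circles) in Ku (left) and Cov (right), with dashed lines at the median of all genes tested. Every point lies below 0 with spike-in scaling, and 35 red circles in Ku and 36 in Cov lie to the left of the red line. When libraries are scaled to an equal median, 22 of the 40 genes in Ku and 25 in Cov lie below the all-gene median at 250 nM.

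The 5 kinesins, motor proteins of the spindle, were called at 250 nM in both lines and in Cov at 50 nM, and none was called at 50 nM in Ku, where the share of all genes was 11.3%. In Cov at 50 nM that share was 70.5%, and at 250 nM the shares were 68.6% in Ku and 84% in Cov. KIF11, the motor that pushes spindle poles apart, read 42.6 and 37.7 FPKM in Ku with DMSO, 23.6 and 20.5 at 50 nM, and 6.09 and 5.96 at 250 nM. Cov gave 119.3 and 136.4, 38.3 and 48.2, and 13.8 and 12.5 FPKM. The log2 fold change at 250 nM was -2.55 ± 0.107 (SE) in Ku and -3.19 ± 0.131 (SE) in Cov, the largest of the kinesins in both.

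KIF4A, a chromosome-bound motor of the central spindle, was at the other end. It read 25.5 and 21.4 FPKM in Ku with DMSO, 16.8 and 14.0 at 50 nM, and 12.9 and 12.03 at 250 nM, and in Cov 46.5 and 49.7, 23.3 and 26.8, and 22.6 and 21.6 FPKM. In Ku 65.6% of the DMSO level was left with 50 nM and 53.0% with 250 nM, and in Cov 52.1% and 46.0%. The further step to 250 nM was -0.28 ± 0.129 (SE) in Ku (adjusted p by limma 0.0941) and -0.17 ± 0.0971 (SE) in Cov (adjusted p by limma 0.172), and neither was called. At 250 nM against DMSO KIF4A was at -0.86 ± 0.129 (SE) in Ku, with an adjusted p of 8.84e-04 that did not pass when any 1 of the Ku libraries was left out, and at -1.09 ± 0.0971 (SE) in Cov. Reads of KIF4A may be shared with its near-identical copy KIF4B, listed at 2.09 and 1.35 FPKM in Ku and 3.45 and 3.61 FPKM in Cov with DMSO, so its values are uncertain to that extent.

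The KIF11 to KIF4A ratio was 1.67 and 1.76 in Ku with DMSO, 1.41 and 1.46 at 50 nM, and 0.473 and 0.496 at 250 nM. In Cov it was 2.57 and 2.75, 1.65 and 1.80, and 0.611 and 0.577, with no overlap between doses in either line. KIF23 and KIF20A, motors of cytokinesis, and KIF2C, a microtubule depolymerase of centromeres, lay between the 2, with log2 fold changes at 250 nM of -1.98, -1.49 and -1.71 in Ku and -2.93, -1.46 and -1.94 in Cov.

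**Figure D4:**
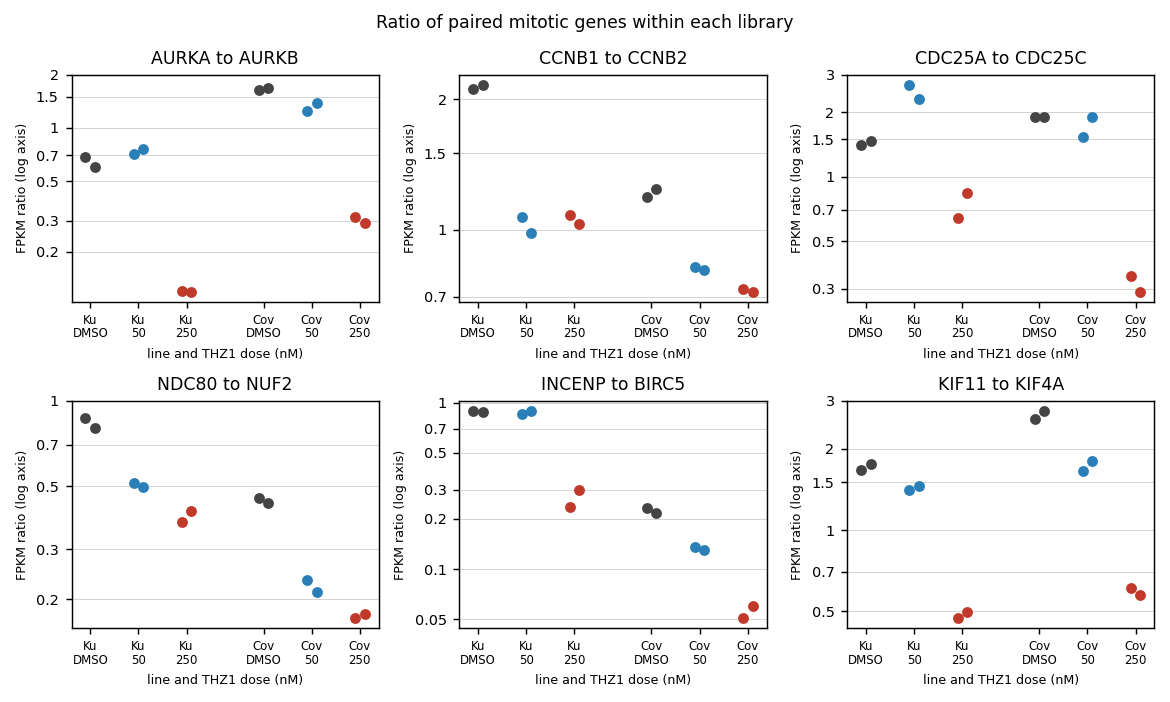
Ratio of the deposited FPKM of paired mitotic genes within each library (log axis) by line and dose, 1 point per library, with DMSO in black, 50 nM in blue and 250 nM in red. The Ku ratios of AURKA to AURKB and of INCENP to BIRC5 lie near or above their DMSO values at 50 nM and lie lower at 250 nM, whereas the ratio of CCNB1 to CCNB2 in Ku is lower already at 50 nM. The 6 pairs were chosen after the values were seen.

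Of the 7 spindle, chromosome and cytokinesis factors, ASPM, which focuses spindle poles, fell most in both lines, with log2 fold changes at 250 nM of -2.69 ± 0.148 (SE) in Ku and -2.87 ± 0.158 (SE) in Cov. The central spindle crosslinker PRC1 was the least changed of all 40 genes in Ku at 250 nM. It read 58.5 and 50.3 FPKM with DMSO, 49.2 and 46.6 at 50 nM, and 30.6 and 30.0 at 250 nM. In Cov it read 177.3 and 195.5, 103.0 and 114.5, and 72.4 and 72.1 FPKM. Its log2 fold changes at 250 nM were -0.82 ± 0.0883 (SE) in Ku, which was less than the median of all genes, and -1.35 ± 0.0909 (SE) in Cov, which was near it.

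HMMR, the hyaluronan receptor that also binds spindle microtubules, read 49.1 and 44.95 FPKM in Ku with DMSO, 26.3 and 22.3 at 50 nM, and 22.7 and 21.7 at 250 nM. In Cov the values were 85.1 and 93.8, 26.8 and 32.2, and 26.1 and 22.2 FPKM. From 50 nM to 250 nM the Ku libraries overlapped, with a difference of -0.12 ± 0.102 (SE) (adjusted p by limma 0.326), and in Cov it was -0.27 ± 0.124 (SE) (adjusted p by limma 0.0942). Both Cov libraries at 250 nM lay below both at 50 nM. These were the smallest step of the 40 genes in Ku and the third smallest in Cov.

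ANLN, anillin of the contractile ring, read 118.2 and 101.9 FPKM in Ku with DMSO, 78.3 and 68.2 at 50 nM, and 55.9 and 54.3 at 250 nM. Cov values were 154.3 and 173.9, 67.4 and 79.0, and 53.8 and 49.4 FPKM. It kept 50.1% of DMSO in Ku and 31.4% in Cov at 250 nM, with log2 fold changes of -0.98 ± 0.0999 (SE) and -1.65 ± 0.110 (SE). TPX2, ECT2 and TOP2A, an activator of Aurora A, an exchange factor for RhoA in cytokinesis and a DNA topoisomerase, had log2 fold changes at 250 nM of -1.50, -1.43 and -1.26 in Ku and of -1.63, -1.67 and -2.04 in Cov, all called.

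The transcription factors FOXM1 and MYBL2, which drive mitotic genes, had smaller log2 fold changes at 250 nM than the median gene in Cov and slightly larger ones in Ku with spike-in scaling, whereas with equal median scaling both lay above the median gene in Ku too, at 0.50 and 0.78 against 0.30. FOXM1 read 31.4 and 29.4 FPKM in Ku with DMSO, 20.5 and 19.0 at 50 nM, and 10.6 and 11.5 at 250 nM. In Cov it read 171.8 and 189.0, 105.5 and 103.4, and 94.2 and 94.2 FPKM. Its log2 fold change at 250 nM was -1.38 ± 0.0879 (SE) in Ku and -0.93 ± 0.0811 (SE) in Cov, the smallest of the 40 genes there, and 52.2% of its level was left. In Cov most of that fall was present at 50 nM, and the further step was -0.15 ± 0.0811 (SE) (adjusted p by limma 0.156).

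MYBL2, the gene of B-MYB, read 166.4 and 162.0 FPKM in Ku with DMSO, 139.3 and 136.2 at 50 nM, and 72.6 and 70.4 at 250 nM. The Cov libraries read 176.9 and 189.6, 113.0 and 105.7, and 80.6 and 89.2 FPKM. Doses did not overlap in either line, and the log2 fold changes at 250 nM were -1.19 ± 0.0535 (SE) in Ku and -1.10 ± 0.0898 (SE) in Cov. Hence 71.1% of all genes tested had fallen at least as much as FOXM1 in Cov, and 61.6% at least as much as MYBL2.

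**Figure D5:**
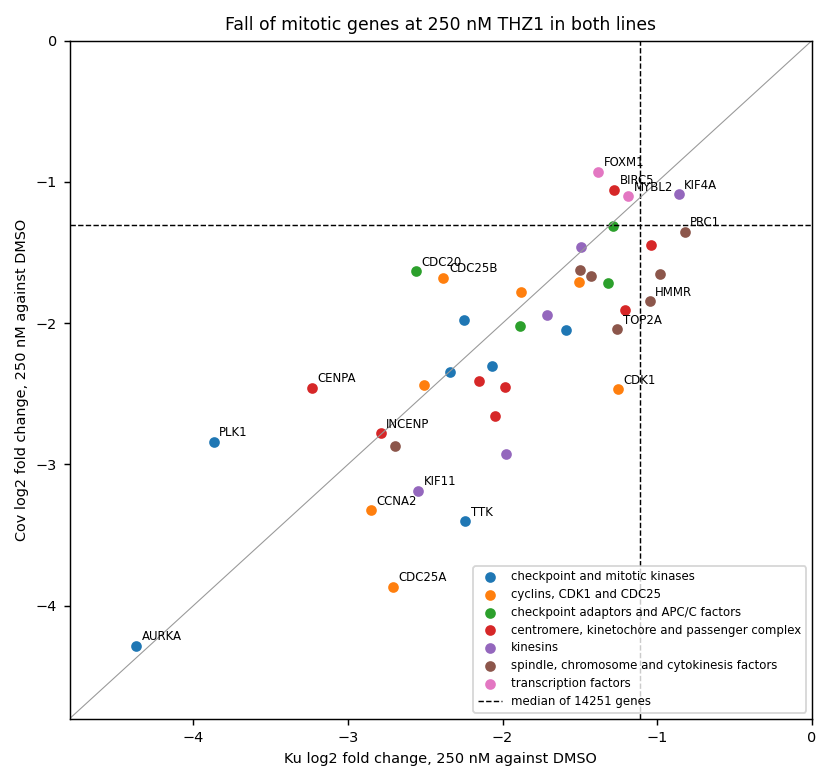
Log2 fold change at 250 nM against DMSO of the 40 mitotic genes in Ku (x axis) and Cov (y axis), colored by role, with the diagonal in gray and dashed lines at the median of all genes tested in each line. AURKA lies at the lower left with -4.37 and -4.29, FOXM1, BIRC5, MYBL2, KIF4A and PRC1 lie at the upper right, and 27 of the 40 points lie below the diagonal.

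Across the 40 genes the order of the falls was much alike in the 2 lines. Pearson's r between their log2 fold changes at 250 nM was 0.770 and Spearman's rho 0.731 (n = 40 genes, which share libraries and are not independent replicates), and at 50 nM they were 0.663 and 0.662. The fall was the larger in Cov for 27 of the 40 genes at 250 nM and for 36 of 40 at 50 nM. The median of all genes was also lower in Cov, -1.31 against -1.11 in Ku at 250 nM and -0.85 against -0.40 at 50 nM. The lines were normalized separately and the difference was not tested. Neither these correlations nor these counts were taken over all genes. At 250 nM the genes kept a median of 25.5% of their DMSO level in Ku and 24.6% in Cov, and at 50 nM 63.5% and 43.2%. Fewer than 10% were left of 3 genes in Ku and of 4 in Cov. Their median gene span was 30431 bases against 33390 for 12075 protein-coding genes tested, and across the 40 genes the Spearman correlation of span with the log2 fold change at 250 nM was 0.263 in Ku and -0.0174 in Cov.

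Genes that work beside the 40 were read from 7 further lists with 127 symbols, of which 121 were in the tables and tested. At 250 nM 112 of the 121 were called lower in Ku and all 121 in Cov, with none higher, against 68.6% and 84% of all genes. The median log2 fold change was -1.53 in Ku and -1.77 in Cov, where those of all genes were -1.11 and -1.31. These shares and medians of all genes are the background of each list that follows. At 50 nM 19 were called lower in Ku, a share near that of all genes (11.3%), and 109 in Cov, against 70.5%. Over the step to 250 nM 61 were called lower in Ku, against 36%, and 51 in Cov, against 24.4%.

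Entry regulators and centriole kinases had medians of -2.56 in Ku and -2.54 in Cov, with all 13 called in both lines at 250 nM, against 68.6% and 84% of all genes. In it CCNF, cyclin F, had log2 fold changes of -3.90 and -3.96, and WEE1, the kinase that holds CDK1 inactive, -3.43 and -3.54. The log2 fold change of WEE1 was larger than those of the 3 CDC25 phosphatases, which oppose it, in Ku, and than those of CDC25B and CDC25C in Cov, with no test of the difference. The other mitotic kinesins, all 7 called, had medians of -2.30 and -2.72, led by KIF18B at -3.24 in Ku and KIF20B at -3.33 in Cov.

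Of 34 other kinetochore and centromere genes 28 were called in Ku, against 68.6% of all genes, and 34 in Cov, against 84%, with medians of -1.35 and -1.60. HJURP, the chaperone that deposits CENPA at centromeres, fell most in both, -4.36 ± 0.0941 (SE) and -4.64 ± 0.106 (SE), alongside the fall of CENPA itself. The 6 not called in Ku at 250 nM were CENPH, CENPK, CENPP, CENPQ, MLF1IP and KNTC1, the first 5 of them subunits of the constitutive centromere network, with log2 fold changes between -0.34 and -1.10. All 6 were called in Cov.

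Of the 16 genes of the APC/C list 15 were called in Ku and 16 in Cov (68.6% and 84% of all genes), with medians of -1.42 and -1.64, and the exception in Ku was ANAPC5 at -0.56 ± 0.0940 (SE). FZR1, the CDH1 activator that takes over from CDC20 after anaphase, fell most, -2.77 and -2.93. Condensin and cohesin genes, 19 of 19 called in both lines, had medians of -1.49 and -1.75, with the largest falls for CDCA5, sororin, in Ku at -2.83 and for WAPAL, which releases cohesin, in Cov at -3.28.

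Spindle pole and microtubule factors had 21 of 23 called in Ku and 23 in Cov (68.6% and 84% of all genes), with medians of -1.29 and -1.61 beside -1.11 and -1.31 for all genes. HAUS8 of the augmin complex fell most, -3.05 and -3.60, and TUBGCP4 and TUBGCP6 of the gamma-tubulin ring were not called in Ku. The 9 genes of the MuvB core and its partners were called in both lines, with medians of -1.77 and -1.90, among them LIN37 in Ku at -2.82 and LIN9 in Cov at -2.62.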

How the data were processed

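RNA-seq was measured in 12 libraries, 2 replicates of each of 3 groups in 2 lines. The deposited values are FPKM: the authors mixed ERCC spike-ins into RNA from equal cell numbers, aligned reads with HISAT to hg19, and made FPKM with cuffquant and cuffnorm, scaled by the spike-in RNAs, with separate tables for Ku and Cov. Versions are not given in the sources used here. Groups came from the labels, which call the replicates biological duplicates.

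The FPKM as deposited were tested with limma 3.58.1 (R 4.3.3) on log2(FPKM + 1), all 3 groups of a line in 1 fit with a mean-variance trend, over the 14251 genes whose FPKM exceeded 1 in any of the 12 libraries. The added 1 understates changes of low genes. A single value, 2 libraries against 2, cannot reach an exact permutation p under 0.33. FPKM carry no read counts, so depth and counting intervals are unknown, and the 2 tables were not tested against each other. Tables and figures used Python 3.11.15, pandas 2.3.3, numpy 2.4.6 and matplotlib 3.10.9, and the fit was tested on simulated data.

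The 40 genes and all lists were chosen with earlier results of these data known. Values in every library were given for genes with the 5 largest or 5 smallest falls at 250 nM in either line, and other members by ranges within their role. NEK2 and CCNB2 were added because their Ku libraries overlapped. From the further lists those not called at 250 nM and at most 2 with the largest fall per line were named. Alternatives were a pseudocount of 0.1, a minimum of 10 or none, equal median and median-of-ratios scaling, only the compared groups, a replicate block, no trend, an adjusted p of 0.05, a log2 limit of 1 and each library left out.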

Additional observations from a re-analysis of the deposited data

How the results depend on the processing

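Among the alternatives tried, only the scalings turned the direction of the median of the 40 genes or of a single gene followed here and called. The direction of uncalled genes could turn otherwise. In Ku, CCNB2 read 43.4 FPKM in DMSO replicate 2 against 45.7 and 45.6 FPKM at 50 nM. Its small fall at 50 nM thus turned without DMSO replicate 1. Scaling libraries to an equal median moved the median log2 fold change of the 40 genes to 0.053 (Ku 50 nM), 0.013 (Ku 250 nM), 0.18 (Ku 250 nM against 50 nM), 0.015 (Cov 50 nM), 0.050 (Cov 250 nM) and 0.018 (Cov 250 nM against 50 nM), with 0, 7, 5, 0, 11 and 6 genes called lower in that order, against 0.589%, 11.7%, 6.59%, 0.154%, 11.3% and 5.05% of all genes. With median-of-ratios scaling 2, 18, 12, 0, 17 and 9 genes were called lower, against 2.72%, 19%, 11.1%, 0.772%, 18.9% and 7.92%. Scaling to an equal median put these log2 fold changes above 0 at 250 nM in Ku for BUB1 0.34, CCNB2 0.41, CDK1 0.70, MAD2L1 0.66, BUB3 0.63, UBE2C 0.088, NUF2 0.89, SPC25 0.72, BIRC5 0.63, KIF20A 0.44, KIF2C 0.23, KIF4A 1.02, TPX2 0.45, TOP2A 0.70, PRC1 1.12, ANLN 0.98, ECT2 0.51, HMMR 0.88, FOXM1 0.50 and MYBL2 0.78 and in Cov for AURKB 0.05, CCNB2 0.34, CDC25B 0.34, CDC25C 0.088, MAD2L1 0.73, BUB3 0.34, CDC20 0.43, UBE2C 0.051, NUF2 0.60, SPC25 0.12, BIRC5 1.00, KIF20A 0.59, KIF2C 0.088, KIF4A 0.93, TPX2 0.43, TOP2A 0.0034, PRC1 0.71, ANLN 0.40, ECT2 0.37, HMMR 0.18, FOXM1 1.13 and MYBL2 0.96. Median-of-ratios scaling did so at 250 nM in Ku for CDK1 0.19, MAD2L1 0.14, BUB3 0.12, NUF2 0.37, SPC25 0.20, BIRC5 0.12, KIF4A 0.52, TOP2A 0.18, PRC1 0.60, ANLN 0.46, HMMR 0.37 and MYBL2 0.26, and in Cov for MAD2L1 0.27, NUF2 0.15, BIRC5 0.54, KIF20A 0.13, KIF4A 0.48, PRC1 0.25, FOXM1 0.67 and MYBL2 0.50. Outside the 250 nM comparison with DMSO single genes were followed only where the report gives their result, so the genes named next are not all those above 0. At 50 nM in Cov, MAD2L1 0.49 and BIRC5 0.56 were above 0 with an equal median, and MAD2L1 0.30 and BIRC5 0.37 with median-of-ratios. From 50 nM to 250 nM the equal median put KIF4A 0.93, ANLN 0.86 and HMMR 1.12 above 0 in Ku and KIF4A 0.66 in Cov, and median-of-ratios put HMMR 0.75 above 0 in Ku. Both other scalings multiply the deposited values of a library by 1 factor, and do not undo a spike-in normalization that varies with level.

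In Ku at 50 nM, 0 genes were called with no minimum FPKM, 0 with only the compared groups in the fit, 5 without a variance trend and 29 at an adjusted p under 0.05, where the shares of all genes were 0.0127%, 0.0632%, 8.13% and 40.2%, from limma throughout, so the 9 calls there depended on these settings. In Ku from 50 nM to 250 nM, 16 were called with no minimum FPKM, against 8.05% of all genes, and 18 beyond a log2 fold change of 1, against 25.2%. Leaving out 1 library gave 0 to 1 calls (Ku 50 nM), 34 to 39 (Ku 250 nM), 9 to 27 (Ku step), 26 to 39 (Cov 50 nM, the lowest without DMSO replicate 2), 40 to 40 (Cov 250 nM) and 10 to 22 (Cov step). In the Ku step 11 were called without 50 nM replicate 1, 16 without 50 nM replicate 2, 9 without 250 nM replicate 1 and 11 without 250 nM replicate 2, with 5.89%, 11.2%, 5.55% and 7.17% of all genes called, and in the Cov step 13 and 10 without 250 nM replicates 1 and 2, with 11.9% and 10.7% called. The lone library of a group was then assumed to vary like the other groups. The shares of all genes called lower also moved in Ku at 250 nM and in Cov at 50 nM. In Cov at 250 nM most of all genes tested were called lower whichever library was left out. The unchanged count there thus does not set the 40 genes apart. With the replicate number as a block (replicate block) 13, 40, 33, 32, 40 and 9 genes were called lower, against 6.94%, 66.6%, 34.7%, 51%, 78.6% and 7.93% of all genes. Across genes, deviations of same-numbered libraries correlated by -0.0703 to 0.0282. A correlation leaves out any shift common to all genes, so it cannot settle whether the numbers pair the libraries. Depth is unknown from FPKM, so counting error could not be given. The causes of these changes were not tested.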

Other observations

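CENPA and CENPF, a histone variant and a large protein of the centromere and kinetochore, gave a ratio that moved differently from the 6 pairs plotted. Within libraries the CENPA to CENPF ratio was 0.383 and 0.484 in Ku with DMSO, 0.189 and 0.130 at 50 nM, and 0.156 and 0.121 at 250 nM. In Cov it was 1.08 and 1.12 with DMSO, 0.844 and 0.743 at 50 nM, and 0.969 and 1.18 at 250 nM, so that the DMSO and 250 nM libraries overlapped in Cov but not in Ku. This pair was chosen after the values were seen.

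Replicate 1 lay above replicate 2 for 39 of the 40 genes in the Ku DMSO libraries and for 40 at 50 nM, and for none of the 40 in the Cov DMSO libraries. Over all genes tested these shares were 86.1%, 78.3% and 13.8%. In the other groups it lay above for 31 of 40 in Ku at 250 nM, against 43.1% of all genes, for 5 of 40 in Cov at 50 nM, against 26.1%, and for 32 of 40 in Cov at 250 nM, against 51.6%.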
